A study of Schizosaccharomyces pombe with 4 samples.

Results

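Transcripts of pre-mRNA splicing factors were followed in the fission yeast Schizosaccharomyces pombe when the transcription factor Atf1 was overexpressed. The genes were chosen by name alone, as those whose symbol on the array begins with cwf, prp, sap, smd, smb, sme, smf, smg, lsm, usp or saf and ends in a number. This gave 74 genes out of 2899 S. pombe genes named on the array, each with 1 probe set. No measured value entered this rule, though it was chosen with earlier results of these data known. One gene caught by the pattern, sap1, encodes a DNA-binding protein of mating-type switching and replication fork barriers, not a splicing factor. It is kept in the counts because the rule holds it, and its values are given apart.

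Affymetrix yeast arrays read biotin-labelled cRNA made from total RNA. The control cells carried the empty overexpression vector in the strain labelled wild type, and the other group, labelled Atf1-OP, overexpressed Atf1. There were 2 arrays in each group, biological replicates by their labels. The sources used here do not give the promoter that drove the overexpression, the medium or the growth stage. As a check of the labels, the atf1 transcript had deposited log2 values of 6.01 and 6.19 on the control arrays and 6.94 and 7.47 under overexpression, and rose 1.78-fold after normalization (limma, adjusted p = 0.0262; 0.0698 to 0.142 without control replicate 1, control replicate 2 or Atf1-OP replicate 2).

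Splicing removes introns from pre-mRNA on the spliceosome, a machine that is assembled anew on each intron. The U1 particle recognises the 5′ splice site, U2 and its SF3a and SF3b proteins bind the branch site, and the U4/U6.U5 tri-snRNP then joins. The Prp19-Cdc5 complex, many of whose members were first isolated in fission yeast as Cwf proteins (complexed with Cdc5), helps to form the catalytic centre, and DEAH-box helicases drive the late steps and release the products. Rings of Sm and Lsm proteins hold the small nuclear RNAs. Many S. pombe genes contain introns, so that these factors act on a large share of its transcripts.

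After quantile normalization, 72 of the 74 genes lay above background and were tested, and 17 of them passed an adjusted p of 0.05 (limma with Benjamini-Hochberg adjustment over all 2857 tested genes). Of these, 15 fell and 2 rose. The falls were spread over the Sm, Lsm, U1, U2, tri-snRNP and Prp19-Cdc5 genes, and the rises were in the last pair of these groups. Among all tested genes, 21.4% passed, 10.3% in the upward and 11.1% in the downward direction. With both directions together, the 17 of 72 (23.6%) stood near the share of all genes. By direction, 15 of the 72 fell and 2 rose, against 318 and 293 of all 2857 genes. This balance depended on the scaling, as given below. The median log2 difference was -0.19 over the 72 genes and -0.01 over all genes. Below 0 were 49 of the 72 and 1464 of all 2857 genes. All of the changes were small: none of the 72 reached 2-fold, and the differences ran from -0.99 to 0.59. The arrays of the 2 groups did not overlap for 37 genes on the lower side and 20 on the higher side, 79.2% of the 72 together, against 66.3% of all genes (34.4% lower and 31.9% higher).

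**Figure D1:**
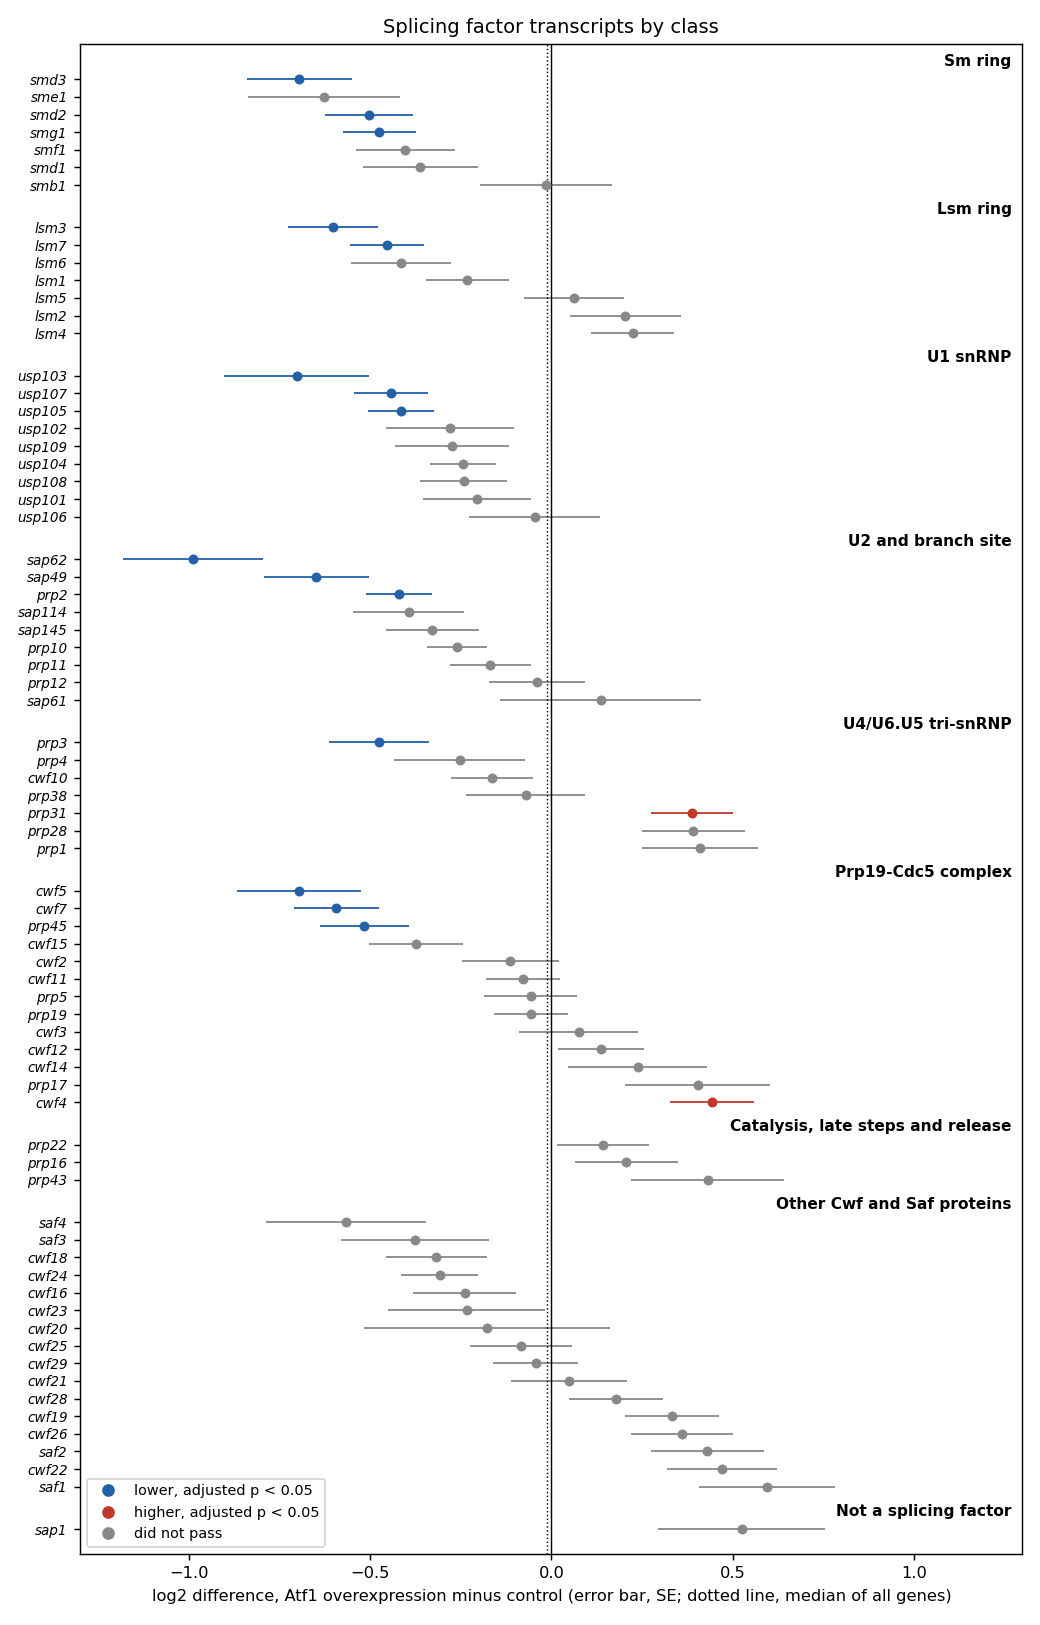
Log2 difference between Atf1 overexpression and control for each of the 72 tested genes, grouped by class, with the standard error as a bar and 2 arrays per group. Blue points fell and red points rose at an adjusted p under 0.05. All 7 Sm genes and all 9 U1 genes lie left of 0, as did 1464 of all 2857 genes tested. The 2 genes that rose are prp31 and cwf4.

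The direction of a count depended on the scaling of the arrays. In the deposited values, before any further scaling, the median of all tested genes was 0.27 higher under overexpression, and 16 of the 72 genes rose while 5 fell, against 903 higher and 116 lower among all 2857 genes (35.7% passing). With median centring 10 rose and 16 fell, against 454 higher and 344 lower among all genes (27.9% passing). Set against the median of all genes, the 72 genes stood at -0.18 after quantile normalization and at -0.17 in both other scalings. For 19 genes the sign in the deposited values was the opposite of that after normalization. The genes called lower under all 3 scalings were smd2, smd3, lsm3, usp107 and cwf7, and the one called higher was cwf4. All of these calls rested on the variance trend, which ties the variance of a gene to its level. Without the trend none of them passed (limma, adjusted p from 0.0583 to 0.0770). There sap62 and cwf5 were called lower and saf1 higher, with 178 of all 2857 genes passing. Because of the scaling, falls and rises below are relative to the bulk of the S. pombe genes named on the array. A fall in the RNA of the cell as a whole was not measured.

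The calls depended on single arrays. With all arrays 34 of the 72 genes had an unadjusted p under 0.05 (limma), against 1092 of all 2857. Without control replicate 1 or 2 the median of the 72 was -0.20 or -0.17, against -0.19 with all arrays. A fit without 1 control array takes its spread from the overexpression arrays. For the 15 genes that fell, the median SD was 0.179 there and 0.038 on the control arrays. Over all genes that fell it was 0.121 and 0.043. The part of this spread in the calls was not tested. Without control replicate 1 only sap62 passed, and without control replicate 2 none of the 72 did (limma; 22 at an unadjusted p under 0.05, and 34 with all arrays). Without Atf1-OP replicate 1, 14 fell and 1 rose, and 12 of the 17 calls were kept. The gene that rose there was cwf22, and neither cwf4 nor prp31 passed. Without Atf1-OP replicate 2, 7 fell and none rose: smd3, smg1, lsm3, lsm7, usp105, prp2 and cwf7. Over all genes the number passing went from 611 to 112, 96, 666 and 334 in the same order. No gene of the 72 passed in all 4 of these fits, while the log2 difference of each of the 17 kept its sign in every one.

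**Figure D2:**
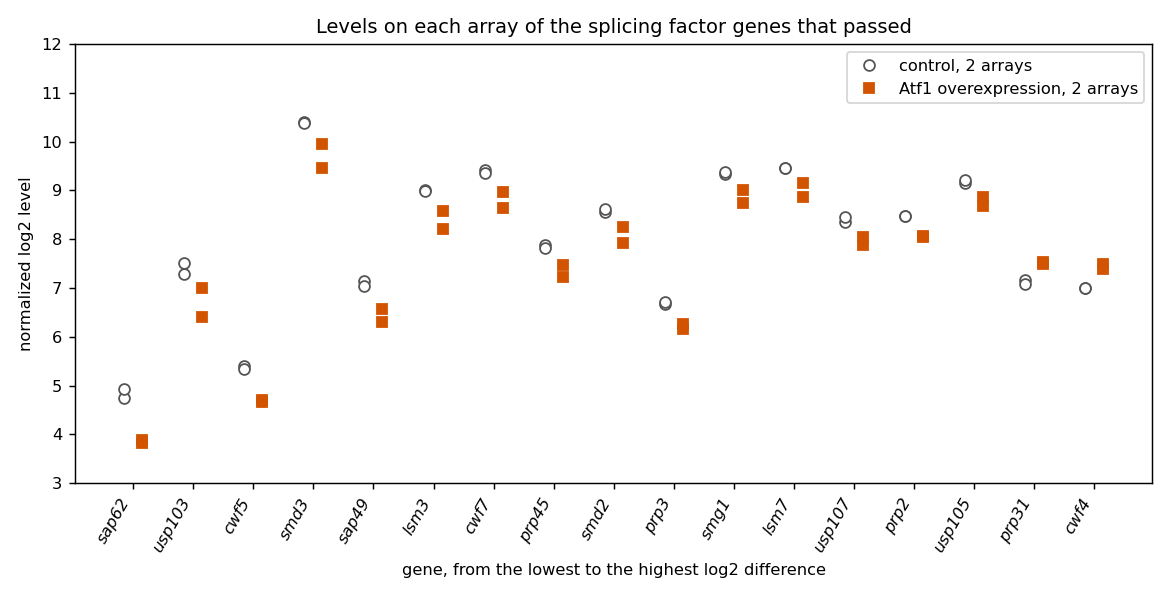
Normalized log2 levels on each of the 4 arrays for the 17 genes that passed, in order of their log2 difference. Open circles are the 2 control arrays and filled squares the 2 overexpression arrays. The groups do not overlap for any of the 17, and the lower of the 2 squares is the second overexpression replicate for every gene that fell except cwf5.

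The Sm proteins form the ring around the U1, U2, U4 and U5 small nuclear RNAs. All 7 genes, smb1, smd1, smd2, smd3, sme1, smf1 and smg1, had log2 differences below 0, from -0.70 to -0.02 with a median of -0.47. Of them, 3 fell and 4 did not pass. Among all 2857 genes, 1464 lay below 0 and 11.1% fell. In smd3 (SPBC19C2.14) the normalized log2 level was 10.41 and 10.39 on the control arrays and 9.95 and 9.45 under overexpression. Both overexpression arrays were below both control arrays, and the gap between them was wider than that between the controls. The difference of -0.70 ± 0.14 (SE) was a 1.62-fold fall (adjusted p = 0.0177), and it was -0.46 without Atf1-OP replicate 2, where smd3 still passed (adjusted p = 0.00618). For smd2 the levels were 8.56 and 8.61 against 8.24 and 7.92, a fall of 1.42-fold (adjusted p = 0.0253), and for smg1 9.33 and 9.37 against 9.002 and 8.751, a fall of 1.39-fold (adjusted p = 0.0188). Again the groups did not overlap and the second overexpression array was the lower one.

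Among the other Sm genes, sme1 had the largest difference, -0.63 ± 0.21 (SE), and did not pass (adjusted p = 0.0704). Its levels of 4.12 and 4.31 against 3.71 and 3.46 lay near background, which after normalization stood at 3.25 and 3.33 on the control arrays and 2.67 and 2.64 under overexpression. The smf1 difference was -0.40 (adjusted p = 0.0742) and the smd1 difference -0.36 (adjusted p = 0.137), with no overlap of the groups in either. The groups overlapped only for smb1, at 6.57 and 6.39 on the control arrays and 6.24 and 6.69 under overexpression, and its sign was positive in the deposited values. Over all genes, 34.4% had no overlap on the lower side. For the 3 Sm genes that passed, the adjusted p ran from 0.0786 to 0.162 without control replicate 1 or control replicate 2. In the deposited values 6 of the 7 were lower under overexpression, as were 684 of all 2857 genes. All 7 lay under the median of all genes there.

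The related Lsm proteins form a pair of rings that share most of their subunits. The nuclear ring, marked by Lsm8, binds the end of U6 RNA, and the cytoplasmic ring, marked by Lsm1, acts in mRNA decay. The lsm8 probe set was at or below background on all 4 arrays, with deposited values of 2.86 and 2.49 on the control arrays and 2.50 and 2.58 under overexpression, so that no difference is given for it. Of the 7 genes measured, lsm3 and lsm7 fell and 5 did not pass, while 11.1% of all genes fell. The lsm3 levels were 9.005 and 8.996 on the control arrays and 8.58 and 8.22 under overexpression, a difference of -0.60 ± 0.12 (SE), or 1.52-fold (adjusted p = 0.0173). Those of lsm7 were 9.46 on both control arrays and 9.14 and 8.87 under overexpression, a 1.37-fold fall (adjusted p = 0.0222).

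The remaining Lsm genes pointed both ways. In lsm6 the difference was -0.41 (adjusted p = 0.0695), and it passed without Atf1-OP replicate 1 and with median centring (adjusted p = 0.0131). In lsm1, the marker of the cytoplasmic ring, it was -0.23 (adjusted p = 0.178). The values for lsm5, lsm2 and lsm4 were 0.06, 0.20 and 0.23, and none passed (adjusted p from 0.191 to 0.774). Each had both overexpression arrays above both control arrays, as did 31.9% of all genes. Subunits of the same ring thus stood on both sides of 0, and the difference between them was not tested. For lsm3 and lsm7 the adjusted p was 0.0913 to 0.146 without either control array, and lsm7 did not pass in the deposited values (adjusted p = 0.0792).

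U1 proteins recognise the start of the intron. All 9 U1 genes, usp101 to usp109, had differences below 0, with a median of -0.27, and 3 of them fell. Below 0 were 1464 of all 2857 genes, and 11.1% of all genes fell. In usp103 (SPBP35G2.09), the homolog of human U1C, the levels were 7.52 and 7.29 on the control arrays and 6.995 and 6.40 under overexpression. The difference was -0.70 ± 0.20 (SE), a 1.63-fold fall (adjusted p = 0.0440), with the second overexpression array well below the first. Without that array the difference was -0.41 and the adjusted p 0.162. The fall of usp107 was 1.36-fold, from 8.36 and 8.45 to 8.04 and 7.89 (adjusted p = 0.0231). For usp105, which RefSeq now names prp39, levels of 9.16 and 9.21 in the control stood against 8.86 and 8.68, a 1.33-fold fall (adjusted p = 0.0205).

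The differences of the other 6 U1 genes ran from -0.28 in usp102 to -0.05 in usp106, the homolog of Luc7, and none of them passed. Their adjusted p ran from 0.0956 in usp104, now named prp40, to 0.872. Groups overlapped only for usp106, and 34.4% of all genes had no overlap on the lower side. Without control replicate 1 or 2 the adjusted p of the 3 genes that fell was 0.106 to 0.181. In the deposited values 5 of the 9 lay below 0, as did 684 of all 2857 genes. Of the 9, 8 lay under the median of all genes there. The gene usp107 kept its call in these values, while usp103 (limma, adjusted p = 0.0871) and usp105 did not.

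The proteins of the U2 particle and of branch site recognition held the gene with the largest fall of the set. Of 9 genes, 3 fell, none rose and 6 did not pass, and the median difference was -0.33. The shares over all genes were 11.1% lower and 10.3% higher. In sap62 (SPBC21C3.05), which encodes an SF3a subunit, the levels were 4.74 and 4.94 on the control arrays and 3.88 and 3.81 under overexpression. The arrays of each group lay close together and the groups stood well apart. The difference was -0.99 ± 0.19 (SE), or 1.98-fold (adjusted p = 0.0151), and it was smaller in the deposited values, at -0.48 (adjusted p = 0.0848). Background was also lower under overexpression on the normalized scale, at 2.65 against 3.29, and its part in the sap62 difference was not tested. Of the fits without 1 array, sap62 passed in the one without control replicate 1.

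The SF3b gene sap49 fell 1.57-fold, from 7.14 and 7.04 to 6.58 and 6.30 (adjusted p = 0.0213). The gene prp2 encodes the large subunit of U2AF, which binds the end of the intron. Its value was the same on both control arrays, 8.48, against 8.07 and 8.04 under overexpression, a 1.34-fold fall (adjusted p = 0.0190). The equal control values arose in the quantile normalization, and the deposited ones were 8.41 and 8.38. Values for sap114 (-0.39), sap145 (-0.33), prp10 (-0.26), the homolog of human SF3B1, and prp11 (-0.17), a DEAD-box helicase, were negative with no overlap of the groups and did not pass (adjusted p from 0.0595 to 0.302). The groups overlapped for prp12 and for sap61, whose overexpression arrays read 4.26 and 5.07. No overlap on the lower side was seen in 34.4% of all genes. Without control replicate 2 none of sap62, sap49 and prp2 passed (adjusted p 0.0645 to 0.156).

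In the tri-snRNP the genes pointed both ways. Here prp3 fell and prp31 rose, and both encode proteins of the U4/U6 part of the particle. The prp3 levels were 6.66 and 6.72 in the control against 6.27 and 6.16, a 1.39-fold fall (adjusted p = 0.0458). Those of prp31 were 7.17 and 7.07 against 7.523 and 7.496, a 1.31-fold rise (adjusted p = 0.0461). In neither gene did the groups overlap. Each stood close to the threshold. In the deposited values prp31 was called higher, at 0.57 (limma, adjusted p = 0.0129), while prp3 stood at -0.17 (adjusted p = 0.363). With median centring neither passed (adjusted p = 0.0708 and 0.0527), nor did they in any fit without 1 array (adjusted p from 0.0677 to 0.259).

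Beside prp31, 2 genes of the tri-snRNP had a positive difference of about the same size and did not pass. These were prp28, a DEAD-box helicase gene, at 0.39 (adjusted p = 0.0862), and prp1, the homolog of budding yeast PRP6, at 0.41 (adjusted p = 0.105). Both were called higher in the deposited values, and prp1 also with median centring. The kinase gene prp4, whose product phosphorylates Prp1, stood at -0.25 (adjusted p = 0.333). The genes cwf10, for the U5 GTPase, and prp38 stood at -0.16 and -0.07, and in all 3 the groups overlapped.

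The Prp19-Cdc5 complex held 13 of the measured genes, of which 3 fell, 1 rose and 9 missed the threshold. Their median was -0.06. Over all genes 11.1% fell and 10.3% rose. In cwf5 (SPCC550.02C), the homolog of budding yeast ECM2, levels of 5.40 and 5.35 stood against 4.66 and 4.69, a difference of -0.70 ± 0.17 (SE), or 1.62-fold (adjusted p = 0.0270). The groups were far apart after normalization, but in the deposited values they met, at 5.21 and 5.05 on the control arrays and 4.92 and 5.05 under overexpression, with an adjusted p of 0.569. For cwf7, the homolog of human SPF27, levels of 9.43 and 9.36 fell to 8.97 and 8.63, or 1.51-fold (adjusted p = 0.0162). The fall of prp45, the homolog of human SKIP, was 1.43-fold, from 7.89 and 7.83 to 7.47 and 7.22 (adjusted p = 0.0247).

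The gene that rose was cwf4 (SPBC31F10.11C), the homolog of budding yeast SYF3. In the deposited values it read 6.95 and 6.83 in control cells against 7.56 and 7.48, and the groups did not overlap. After normalization the difference was 0.44 ± 0.12 (SE), or 1.36-fold (adjusted p = 0.0326). The rise was called in all 3 scalings, and not in any fit without 1 array. The gene prp19, which encodes the ubiquitin ligase that gives the complex its name, stood at -0.06 (adjusted p = 0.727). Differences of cwf2, cwf11, prp5, prp19 and cwf3 lay between -0.11 and 0.08, and the groups overlapped for cwf2, prp5 and cwf3 but not for cwf11 and prp19. The genes prp17 (0.40), cwf14 (0.24), cwf12 (0.14) and cwf15 (-0.37) had groups that did not overlap and did not pass. Groups stood apart in this way, in either direction, for 66.3% of all genes. Without control replicate 1 or 2 none of the 4 called genes passed (adjusted p 0.0882 to 0.175).

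In the late-step DEAH-box helicases prp16, prp22 and prp43, both overexpression arrays lay above both control arrays, as in 31.9% of all genes. The log2 differences were 0.21, 0.14 and 0.43, and none of the 3 passed (limma, 0 also at an unadjusted p under 0.05). Prp16 remodels the spliceosome before the second step, Prp22 releases the mRNA and Prp43 takes the intron complex apart. In the deposited values prp16 was called higher (adjusted p = 0.04955). The prp43 gene was called higher there (adjusted p = 0.0165) and with median centring (adjusted p = 0.0186). The second-step factor gene prp18 was at or below background on all 4 arrays, at 2.18 and 1.94 on the control arrays and 2.38 and 2.33 under overexpression, and has no difference.

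None of the 16 other Cwf and Saf genes passed (limma, 7 at an unadjusted p under 0.05, as were 1092 of all 2857 genes). Their differences ran from -0.57 in saf4 to 0.59 in saf1. The saf1 levels were 4.21 and 4.29 on the control arrays and 4.77 and 4.92 under overexpression (adjusted p = 0.0585), and the gene was called in both other scalings, without the variance trend and after a length correction. In cwf22 levels of 7.24 and 7.20 stood against 7.49 and 7.90, a difference of 0.47 (adjusted p = 0.0625), and it was called in both other scalings, with robust variances, after the length correction and without Atf1-OP replicate 1. For saf2 the difference was 0.43 (adjusted p = 0.0856), and it was called in both other scalings and after the length correction. The value for cwf24 was -0.31 (adjusted p = 0.0742), which passed with median centring. Levels of saf4 were 3.72 and 3.42 against 3.07 and 2.94, near background (adjusted p = 0.102). The genes cwf22 and cwf24 are neighbours in the genome and had differences of opposite sign. The other pair of neighbours in the set, prp11 and cwf23, stood at -0.17 and -0.23. For sap1, the gene without a splicing role, levels were 5.002 and 4.700 against 5.64 and 5.11, a difference of 0.53 (adjusted p = 0.139), and it was called higher in both other scalings.

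**Figure D3:**
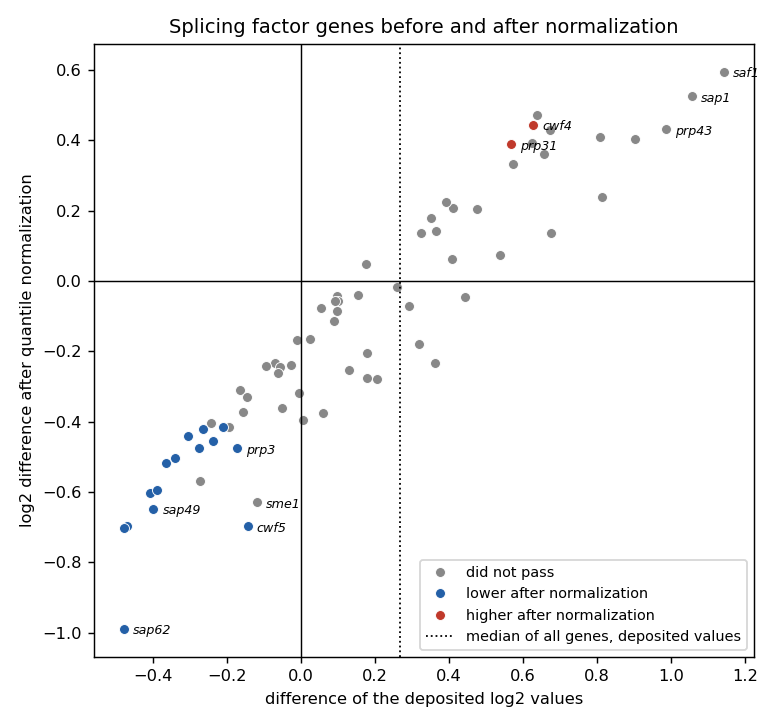
Difference of the deposited log2 values (horizontal axis) against the log2 difference after quantile normalization (vertical axis) for the 72 genes, with the median of all genes in the deposited values, 0.27, as a dotted line. All 15 genes that fell lie left of 0 on the horizontal axis too. The 19 genes to the lower right have a positive deposited and a negative normalized difference.

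Differences in the set were set against gene length and the brightness of the probe set. Of the 10 genes shorter than 1000 bp by the annotated gene span, among them smd2, smd3, smg1, lsm7, usp103 and cwf7, 9 had a difference below 0 and 6 fell, with a median of -0.46. The 32 genes from 1000 bp to under 2000 bp had a median of -0.22 and the 30 of 2000 bp or more a median of 0.02. Over all tested genes the same classes had medians of -0.10, -0.04 and 0.05. Of the 387 short ones, 32.0% passed, 79 of them lower, and 235 lay below 0. Across the 72 genes the log2 difference correlated with log2 length at Pearson r = 0.40 and Spearman rho = 0.40, against 0.15 and 0.15 across all 2857 genes. These are correlations across genes that share the same 4 arrays, given as a description.

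Of the 15 genes whose mean normalized level was 8 or more, all had a difference below 0 and 9 fell, with a median of -0.42. Among all 778 genes of that brightness, 38.0% passed, 161 of them lower, 411 lay below 0 and the median was -0.02. The dimmer genes of the set did not follow an order: the median was -0.06 for the 40 genes between 6 and 8 and -0.18 for the 17 under 6. Across the 72 genes the log2 difference correlated with the mean level at Pearson r = -0.22 and Spearman rho = -0.25, against -0.01 for both across all genes. Length and level were themselves related across the 72 genes (Pearson r = -0.22, Spearman rho = -0.11). The short and the bright genes were in large part the same: smd2, smd3, smg1, lsm1, lsm6, lsm7 and cwf7 were both. With a loess correction of each array for gene length, all 17 calls were kept and the median of the 72 genes was -0.16. In that fit 16 of the 72 fell and 5 rose (29.2%), against 363 and 384 of all 2857 genes (26.1%). The median of the 7 Sm genes was then -0.36 and that of the 9 U1 genes -0.26.

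**Figure D4:**
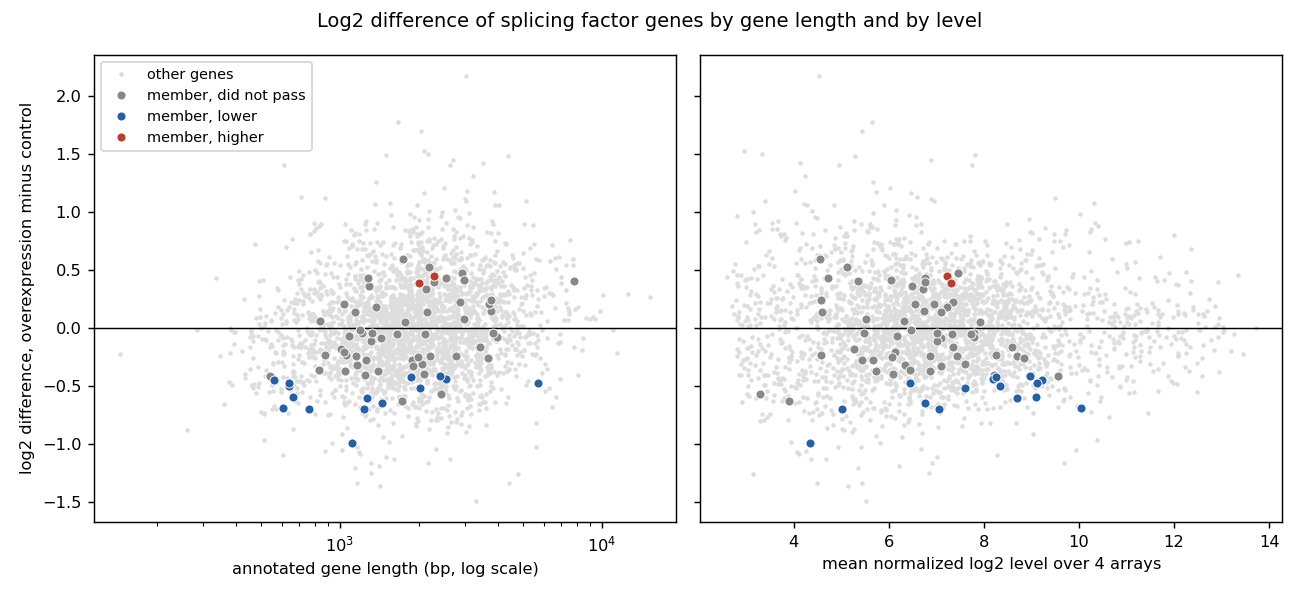
Log2 difference against annotated gene length on a log axis (left) and against the mean normalized log2 level (right), with the 72 splicing factor genes over all other tested genes in light grey. Blue genes fell and red genes rose. The short genes and the bright genes of the set lie below 0 with 1 exception among the 10 short ones and none among the 15 bright ones.

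Transcripts added during the array procedure differed between the groups as well. Hybridization controls had a class mean of 11.9 on the control arrays and 10.9 under overexpression. Poly-A controls were higher under overexpression by 1.29 at the 5′ end, by 1.01 in the middle and by 0.27 at the 3′ end (14 probe sets each). For the 7 S. pombe control transcripts read at both ends, the signal at the 3′ end less that at the 5′ end was lower under overexpression in 5, with means of 2.88 and 2.69. The part of these differences in the values of the splicing factors was not tested. The annotated span overlapped that of another protein-coding gene for 35 of the 74 genes and for 8 of the 17 that passed, against 1210 of 2857 genes tested, and where each probe set lies within its gene is not known here. Bulk RNA from a culture gives an average over its cells, so that a change in few cells and a small change in all cannot be told apart.

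Splicing genes whose names the rule does not match gave a like picture. Of 26 such genes measured, 1 rose, 5 fell and 20 missed the threshold, and the median was -0.26. The 23.1% of them that passed stood near the 21.4% of all genes, whose median was -0.01. The largest fall was that of hub1 (SPBC31E1.03), which encodes a ubiquitin-like protein that binds the spliceosome. Its levels were 10.42 and 10.50 on the control arrays and 9.60 and 9.22 under overexpression, a 2.08-fold fall (adjusted p = 0.00347). It passed in all 3 scalings and in each of the 4 fits without 1 array, with adjusted p from 0.001002 to 0.0274.

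The other 4 that fell were snu23 (1.69-fold), the tri-snRNP gene snu13 (a log2 difference of -0.38), uap56 (1.26-fold), for an RNA helicase of splicing and mRNA export, and srp2 (1.21-fold), for an SR protein. The one that rose was brr2, for the helicase that unwinds U4 from U6, from 6.84 and 6.98 to 7.38 and 7.66, or 1.53-fold (adjusted p = 0.0222). Its partner in U5, spp42, the homolog of PRP8, stood at 0.33 (adjusted p = 0.0859). Without Atf1-OP replicate 2 the snu13 difference was -0.24 (adjusted p = 0.0434). Of these 6 genes, hub1 was the one to pass without either control array, where the adjusted p of the others was 0.0545 to 0.293. In the deposited values 4 of the 26 rose and 1 fell, against 903 higher and 116 lower among all 2857 genes.

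**Figure D5:**
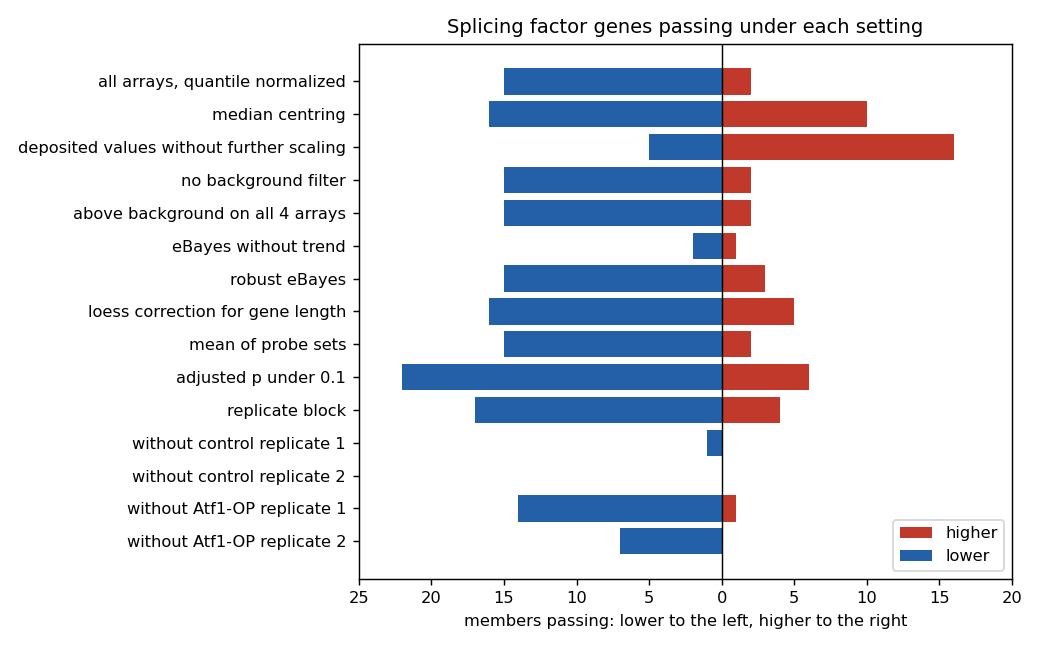
Number of the 72 genes that passed as lower (blue, to the left) or higher (red, to the right) under each setting of the processing. With all arrays and quantile normalization 15 fell and 2 rose. The balance was 16 higher and 5 lower in the deposited values, and without control replicate 2 no gene passed.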

How the data were processed

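The authors deposited 1 log2 value per probe set and array, judged to be log2 from the range of the values. The sources used here do not give the summarisation, background correction and normalization behind these deposited values. Groups and replicate numbers came from the sample titles. The platform annotation named the probe sets, and RefSeq (assembly ASM294v3) gave systematic names, gene lengths and neighbours. It matched 2914 of 2917 S. pombe probe sets by identifier and 3 by symbol. All 74 genes of the set matched, and 3 have a newer symbol there.

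Values were quantile normalized over the 2917 S. pombe probe sets named by the annotation. The probe set with the highest mean was kept per gene. Of the 10928 probe sets on the array, 5224 had no name there and were left out. A gene was tested if it exceeded the 95th percentile of the 2598 S. cerevisiae probe sets on at least 2 of the 4 arrays. The comparison used lmFit and eBayes with trend of limma 3.58.1 (R 4.3.3) and Benjamini-Hochberg adjustment over all 2857 genes. The method was tried on simulated data with independent noise, variances shuffled across genes and no shift between arrays. That trial cannot speak to the scaling, the variance trend or the weight of single arrays, because it held none of these effects. With 2 arrays per group, their number limits the precision. p-values and standard errors rest on the spread between these arrays, with the variance of each gene drawn by eBayes towards that of genes of like level.

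The rule for the genes used no measured value, but the rule, the lists and the tests were chosen with earlier results of these data known. The text names all genes that passed, up to 3 of each class with the smallest p, the extremes in level, those at background, atf1, and the passing ones of the other splicing genes. Further genes were named after their values were seen, to account for each class. From the list of other splicing genes, 3 symbols that name other proteins in S. pombe were removed, 1 of them after its value was seen. Alternatives were 2 other scalings, other background filters, variance models, a length correction, averaged probe sets, a looser threshold, a replicate block and leaving out each array. With 1 array left out, the remaining ones were normalized anew and a group of 1 array was taken to vary as much as the other. The deviations of same-numbered arrays from their group means correlated across all genes at r = 0.04. Figures were drawn with matplotlib 3.10.9.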

Additional observations from a re-analysis of the deposited data

How the results depend on the processing

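With the replicate number as a replicate block, 848 genes passed in all, 21 of the 72 splicing factor genes passed (4 higher, 17 lower), and 2 other splicing genes rose and 10 fell; the labels share a number only. Median centring gave 26 of the 72 passing, 10 higher, and 2 other splicing genes higher and 8 lower. With the deposited values 1019 genes passed in all, 16 of the 72 were higher and 5 lower, the median of the 72 was 0.094, and 4 other splicing genes rose and 1 fell. A fit without trend gave 178 in all, 3 of the 72 (1 higher, 2 lower) and, of the other splicing genes, 0 higher and 1 lower. The length correction gave 5 of the 72 higher, against 384 of all 2857 genes. At an adjusted p under 0.1, 933 genes passed in all, 28 of the 72 (6 higher), and 2 and 10 of the other splicing genes. Leaving out 1 array in turn gave 96 to 666 genes in all, 0 to 15 of the 72 (0 to 1 higher, 0 to 14 lower), a median of -0.27 to -0.14, and 0 to 2 other splicing genes higher and 1 to 5 lower. The cause of these shifts was not tested. Both background filters, averaged probe sets and robust variances left the counts of the 72 within 1.5 times. None of the 17 genes that passed changed its sign under any alternative run, while 19 of the 72 did so between normalized and deposited values. Signal near background limits sme1, saf4, sap62, lsm8 and prp18.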
